A study of Arabidopsis thaliana with 12 samples.

Results

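The genes described here are 9 extensin genes of the kind associated with root hairs, namely HRGP1 (AT3G54590), AT1G23720, AT5G06630, AT4G08410, AT3G54580, AT3G28550, AT2G43150, AT1G26250 and AT1G26240. They were picked because several of them stood at the top of the ranking of single genes between 2 groups of this series, ara1/2mut and Col-3, and members were also seen in the ranking of Col-3 against Col-0. Their values in those 2 comparisons are therefore a description, and no test of them is given there. Each gene was represented by 1 probe set matched to it alone, out of 13356 genes measured that way. These made 9 of the array's 22746 probe sets other than controls, and all 9 were among the 13648 whose mean log2 signal passed the filter on low values. The probe sets of HRGP1, AT1G23720, AT5G06630 and AT4G08410 carry the suffix x, which marks probes that can also match other transcripts, and the other 5 do not.

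Extensins are hydroxyproline-rich glycoproteins of the plant cell wall. Their prolines are hydroxylated, short chains of sugars are added to the hydroxyprolines and serines, and the finished proteins are cross-linked through tyrosines into a network by peroxidases in the wall. In growing root hairs, which are tubular outgrowths of single epidermal cells, this modification is needed for normal elongation. The family is built from short repeats, so that its members resemble each other and probes for 1 member can pick up others.

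The series measured RNA from roots of 7-day-old Arabidopsis thaliana seedlings on Affymetrix ATH1 arrays, with 3 arrays in each of 4 groups. Col-0 and Col-3 are wild types. The line ara1OX carries 35S:Ara1YFP in Col-0, which is the F-box protein ARABIDILLO-1 fused to yellow fluorescent protein and driven by the cauliflower mosaic virus 35S promoter, active in most plant cells. The line ara1/2mut is mutant for both ARABIDILLO genes in Col-3. ARABIDILLO-1 and ARABIDILLO-2 promote lateral root formation. In all groups seed stood at 4 °C for 2 days before germination on Murashige and Skoog medium (0.5 strength, 1% agar) at 24 °C, in cycles of 16 h light and 8 h dark. The labels number the replicates without saying whether they were separate cultures, so p-values reflect only how far these arrays differ within a group, and that spread may be technical. Levels are MAS5 signals in arbitrary units on a scale where every array had been set to a trimmed mean of 100. Signals of different probe sets cannot be set against each other.

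Across the arrays the extensins had their lowest values in Col-3 and their highest in ara1OX. Col-3 had the lowest group mean for 8 of the 9 genes and ara1/2mut for AT1G26240. The highest group mean was that of ara1OX for 8 genes and that of ara1/2mut for AT1G26250. The genes were picked on ara1/2mut against Col-3, so the choice itself favours a low Col-3 level. How many of all probe sets had such an order was not counted. Averaged over the 9 probe sets, each as log2 signal minus its own mean over the 12 arrays, the level was -0.72 ± 0.41 in Col-3 (SD, n = 3), 0.08 ± 0.05 in Col-0, 0.12 ± 0.10 in ara1/2mut and 0.52 ± 0.48 in ara1OX. All 3 Col-3 arrays lay below all 9 others on this average. The ara1OX arrays were spread from 0.09 to 1.03, so that the lowest of them lay among the Col-0 and ara1/2mut arrays. These arrays measure whole roots, so fewer root hair cells and less extensin RNA per cell cannot be told apart.

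**Figure D1:**
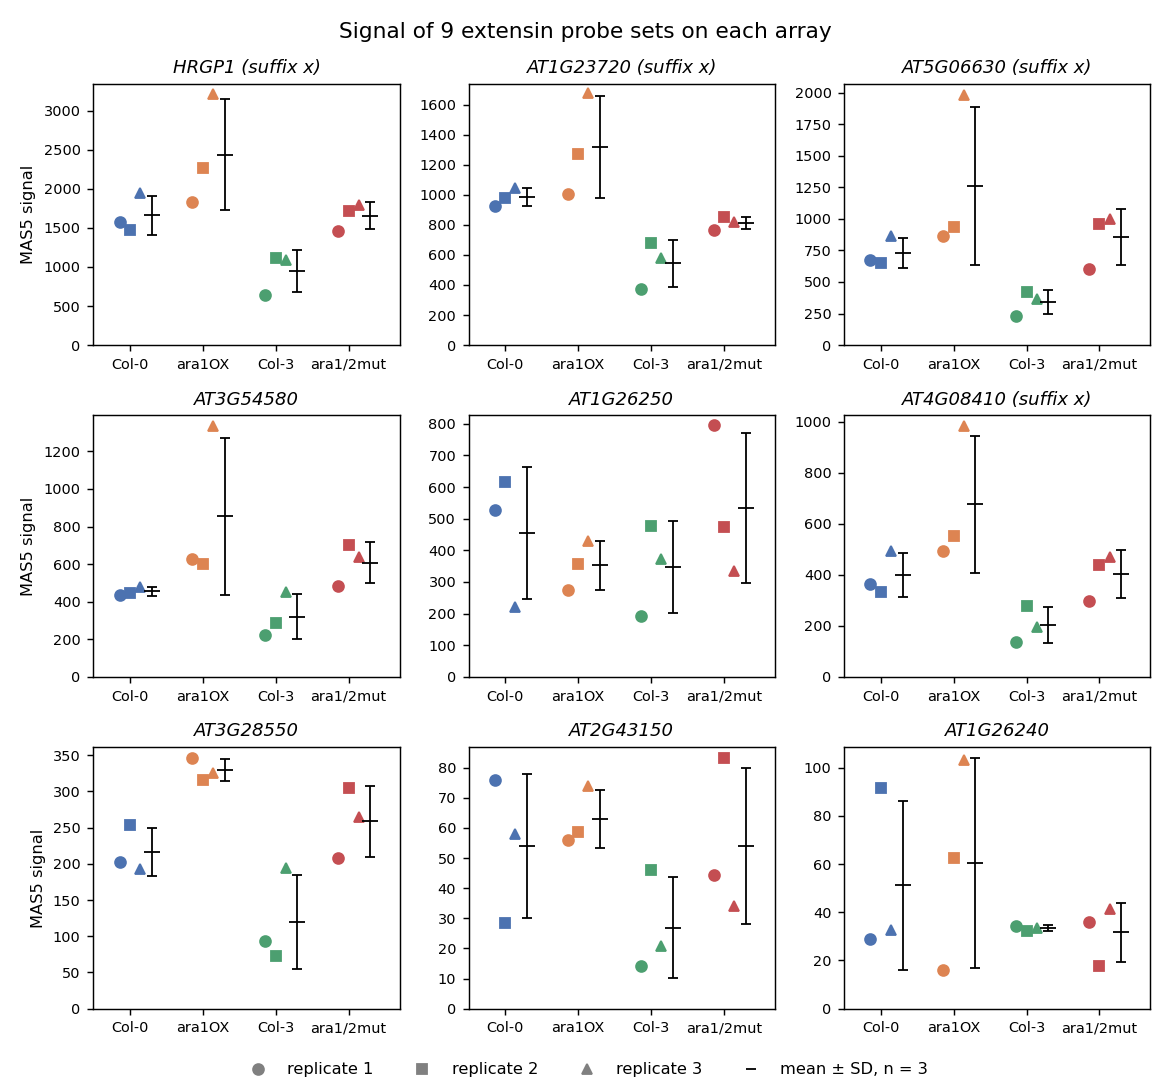
MAS5 signal (vertical axis, linear scale from 0) of the 9 extensin probe sets on each of the 12 arrays, with 1 panel per gene, groups on the horizontal axis, a marker shape per replicate number and the group mean ± SD (n = 3) in black. For HRGP1 the Col-3 arrays ran from 639 to 1117 and the lowest array of the other groups lay at 1461.

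HRGP1 encodes a hydroxyproline-rich glycoprotein and lies next to AT3G54580 in the gene order of TAIR10.1. Its signal was 1572, 1471 and 1943 in Col-0 replicates 1, 2 and 3, and 1828, 2266 and 3216 in those of ara1OX. It was 639, 1117 and 1083 in Col-3 and 1461, 1721 and 1788 in ara1/2mut. The Col-3 arrays lay below every other array, and replicate 1 was the lowest of them. The Col-0 and ara1/2mut arrays overlapped, and the ara1OX arrays lay above those of ara1/2mut but overlapped those of Col-0.

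AT5G06630 lies beside EXT10, another extensin gene, in the same gene order. Its signal was 673, 649 and 868 in Col-0, 866, 932 and 1983 in ara1OX, 234, 421 and 362 in Col-3, and 605, 962 and 1002 in ara1/2mut. Here too the Col-3 arrays lay below all others, while neighbouring groups among the remaining 3 overlapped. Replicate 3 of ara1OX was the highest of the 12 arrays, as it was for the other members with the suffix x.

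AT4G08410 had signals of 366, 333 and 495 in Col-0, 493, 551 and 982 in ara1OX, 135, 279 and 197 in Col-3, and 296, 440 and 471 in ara1/2mut. Its order over the 12 arrays was the same as that of HRGP1 (Spearman rho 1.0). A further probe set is matched to both AT4G08410 and AT4G08400 and cannot be assigned to either. Its signal was 30.5, 37.8 and 57.6 in Col-0, 54.3, 79.3 and 155 in ara1OX, 11.9, 31.7 and 15.3 in Col-3, and 29.9, 45.4 and 55.4 in ara1/2mut, so its group means had Col-3 lowest and ara1OX highest as well.

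AT1G23720 had signals of 925, 976 and 1045 in Col-0, 1005, 1273 and 1674 in ara1OX, 374, 677 and 581 in Col-3, and 767, 850 and 820 in ara1/2mut. Its ara1/2mut arrays lay above all Col-3 arrays and below all Col-0 arrays, and the Col-0 and ara1OX arrays overlapped. Of the 4 members with the suffix x it was the only one whose ara1/2mut arrays all lay below those of Col-0.

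AT3G54580, the neighbour of HRGP1, has no suffix x. Its signal was 436, 448 and 480 in Col-0, 625, 601 and 1335 in ara1OX, 220, 289 and 451 in Col-3, and 485, 700 and 640 in ara1/2mut. Replicate 3 of Col-3 lay within the range of Col-0, and the ara1OX and ara1/2mut arrays lay above all Col-0 arrays. Those 2 groups overlapped each other.

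AT3G28550, also without the suffix, had signals of 202, 254 and 192 in Col-0, 347, 317 and 326 in ara1OX, 93.3, 72.7 and 194 in Col-3, and 208, 305 and 265 in ara1/2mut. The ara1OX arrays were close together and above all others. Unlike the members with the suffix x, it was not raised further in ara1OX replicate 3, and Col-3 replicate 3 rather than replicate 2 was the highest of its group.

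The remaining 3 members followed this order loosely or not at all. AT1G26250 had signals of 529, 616 and 219 in Col-0, 274, 357 and 429 in ara1OX, 192, 477 and 374 in Col-3, and 796, 474 and 334 in ara1/2mut, and all 4 groups overlapped. Its neighbour AT1G26240 had 29.1, 91.6 and 32.6 in Col-0, 15.9, 62.3 and 103 in ara1OX, 34.4, 32.1 and 33.5 in Col-3, and 36.0, 17.9 and 41.3 in ara1/2mut, again with overlap of all groups. AT2G43150 had 75.9, 28.4 and 58.0 in Col-0, 56.2, 58.8 and 73.8 in ara1OX, 14.2, 45.9 and 20.7 in Col-3, and 44.4, 83.2 and 34.0 in ara1/2mut. The ara1OX arrays of AT2G43150 lay above its Col-3 arrays, and its neighbouring groups overlapped. Arrays of these last 2 genes fell below the filter signal of 22.4, so their differences are the least certain of the 9.

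These 3 members also varied most between replicates. The residual SD of log2 signal within groups was 0.89 for AT1G26240, 0.66 for AT2G43150 and 0.63 for AT1G26250, against a median of 0.28 over all 13648 probe sets. It was 0.46 for AT5G06630, 0.44 for AT3G54580, 0.44 for AT4G08410, 0.41 for AT3G28550, 0.33 for HRGP1 and 0.29 for AT1G23720. All 9 lay above that median, and AT1G23720 was closest to it.

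The contrast of ara1OX with Col-0 asks which genes respond to more ARABIDILLO-1. Its log2 differences share no array with the ara1/2mut comparison from which the genes were picked. The spread behind its SE and p-values, however, comes from all 12 arrays, those of ara1/2mut and Col-3 included. Col-0 was also the reference in Col-3 against Col-0, where members had been seen too. In ara1OX 0 of the 9 extensins passed at a Benjamini-Hochberg adjusted p under 0.05 in limma, where 0.022% of all probe sets passed. The unadjusted limma p was under 0.05 for 5, all higher in ara1OX, where 6.43% of all probe sets reached that level in either direction. They were AT3G54580, AT4G08410, AT5G06630, HRGP1 and AT3G28550. The probe sets move together and share sequence, so these are not 5 separate observations.

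AT3G54580 had the largest difference of the 9, a log2 difference of 0.81 (SE 0.28, 95% confidence interval 0.20 to 1.41, limma p 0.0121, adjusted p 0.630), with 3 of 3 ara1OX arrays above all Col-0 arrays. AT4G08410 had 0.72 (SE 0.28, adjusted p 0.682) and AT5G06630 had 0.69 (SE 0.29, adjusted p 0.730). AT3G28550 had 0.62 (SE 0.27, adjusted p 0.735), and with AT3G54580 it made the 2 members whose ara1OX arrays lay wholly above Col-0, where 4.87% of all probe sets did so. HRGP1 had 0.52 (SE 0.23, adjusted p 0.731) and AT1G23720 had 0.39 (SE 0.21, adjusted p 0.808). AT2G43150, AT1G26240 and AT1G26250 had 0.32 (SE 0.44), 0.08 (SE 0.57) and -0.26 (SE 0.39), with adjusted p-values of 0.934, 0.994 and 0.944. The interval for AT1G26250 ran from -1.09 to 0.58, which includes 0. The median over the 9 was 0.52, against -0.03 over all probe sets, with 8 of 9 above 0 where 44.6% of all were.

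The ara1OX values rested on replicate 3 in part. Without that array the median of the 9 was 0.30, 7 were above 0, and 0 had an unadjusted limma p under 0.05 (5.94% of all probe sets did). The same count was 1 without Col-0 replicate 1 (4.96% of all probe sets), 2 without Col-0 replicate 2 (5.83%), 3 without ara1OX replicate 2 (8.98%) and 2 without the variance trend (6.58%), and no member passed after adjustment in any of these fits. Replicate 3 of ara1OX also carried the highest signal of spiked-in hybridization controls, 5.68 times that of the median array.

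**Figure D2:**
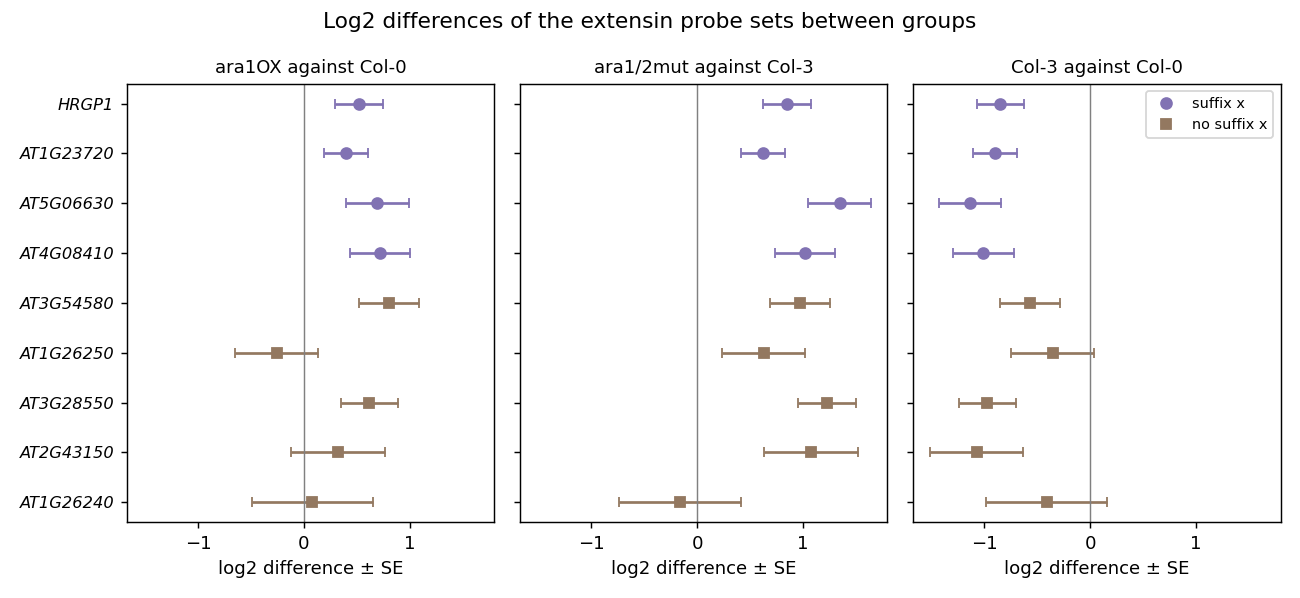
Log2 difference ± SE (horizontal axis) of each extensin probe set in the 3 comparisons, from 1 limma fit of all 12 arrays. Circles are the 4 probe sets with suffix x and squares the 5 without it. All 9 lie below 0 in Col-3 against Col-0, and the panels share the Col-3 or Col-0 arrays.

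In ara1/2mut against Col-3, which asks what changes when both ARABIDILLO genes are lost, the median log2 difference of the 9 was 0.97 against 0.01 over all probe sets. In this comparison 0% of all 13648 probe sets passed in limma after adjustment. The log2 difference was 1.34 for AT5G06630, 1.23 for AT3G28550, 1.07 for AT2G43150, 1.02 for AT4G08410, 0.97 for AT3G54580, 0.85 for HRGP1, 0.63 for AT1G26250, 0.62 for AT1G23720 and -0.16 for AT1G26240. For 6 members the ara1/2mut arrays lay wholly above those of Col-3, where 5.08% of all probe sets did so. The 3 that overlapped were AT2G43150, AT1G26250 and AT1G26240, the same 3 with the largest spread within groups. Since the genes were picked on this comparison, nothing is read from those counts. Without Col-3 replicate 1, the lowest array, the median was 0.70.

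Between the wild types all 9 had a negative log2 difference, Col-3 minus Col-0 (50.4% of all probe sets did), and their median was -0.89 against -0.00266 over all probe sets. The log2 differences ran from -0.35 for AT1G26250 to -1.14 for AT5G06630. The sign turned for AT1G26240 without Col-0 replicate 2 (0.11) and for AT1G26250 without Col-3 replicate 1 (0.026). In this comparison too, 0% of all probe sets passed in limma. The Col-3 arrays lay wholly below those of Col-0 for 4 members, all with the suffix x, where 7.1% of all probe sets did so. AT3G28550 and AT2G43150 had differences of similar size, -0.97 and -1.07, but 1 Col-3 array each reached into the range of Col-0. This comparison and the one before it share the 3 Col-3 arrays, so they are not separate observations of a low Col-3 level. Without Col-3 replicate 1 the median was -0.64.

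Probe sets with and without the suffix differed in how tightly they moved together more than in which way they moved. The 3 members with the largest spread within groups all lack the suffix, so suffix and spread cannot be told apart here. In ara1OX against Col-0 the 4 with suffix x had log2 differences from 0.39 to 0.72 (median 0.61) and the 5 without it from -0.26 to 0.81 (median 0.32). In ara1/2mut against Col-3 the medians were 0.93 and 0.97, with 4 of 4 and 4 of 5 above 0, where 51.6% of all probe sets were. In Col-3 against Col-0 they were -0.95 and -0.57, with 4 of 4 and 5 of 5 below 0. Of the 13648 probe sets that passed the filter, 19 carry the suffix x, and the 15 that are not extensins of this set had medians of 0.46, 0.22 and -0.10 in the same 3 comparisons, with 9, 11 and 5 above 0, where 44.6%, 51.6% and 49.6% of all probe sets were. How much shared probes add to the values of the 4 extensins was not tested.

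Over the 12 arrays the Pearson r of log2 signal between the 4 probe sets with suffix x ran from 0.923 to 0.983 over 6 pairs. After removal of the group means it still ran from 0.857 to 0.972, so they also followed each other among replicates. Over the 20 pairs with 1 probe set of each kind the median r was 0.744, and over the 10 pairs without the suffix it was 0.258. Among those 10, the pair without AT1G26240, AT2G43150 or AT1G26250 was AT3G54580 with AT3G28550. Its r was 0.842, and 0.519 after removal of the group means. These values describe 12 arrays in 4 groups, share the scaling of each array, and come from related sequences.

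AT3G54580 was the member without the suffix that came closest to the 4, with r of 0.932 with AT5G06630 and 0.910 with its neighbour HRGP1, and 0.849 and 0.808 after removal of the group means. AT3G28550 stood apart from this. Its r with the 4 was 0.714 to 0.779 over all arrays but between -0.08 and 0.11 once the group means were removed. Its group means had the same order as those of AT5G06630 and AT4G08410 but not AT1G23720. For HRGP1 the mean log2 signal was 10.69 in both Col-0 and ara1/2mut, so those groups have no order there. The neighbours AT1G26240 and AT1G26250 had r of 0.237 with each other, and AT1G26250 had at most 0.304 with any other member.

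**Figure D3:**
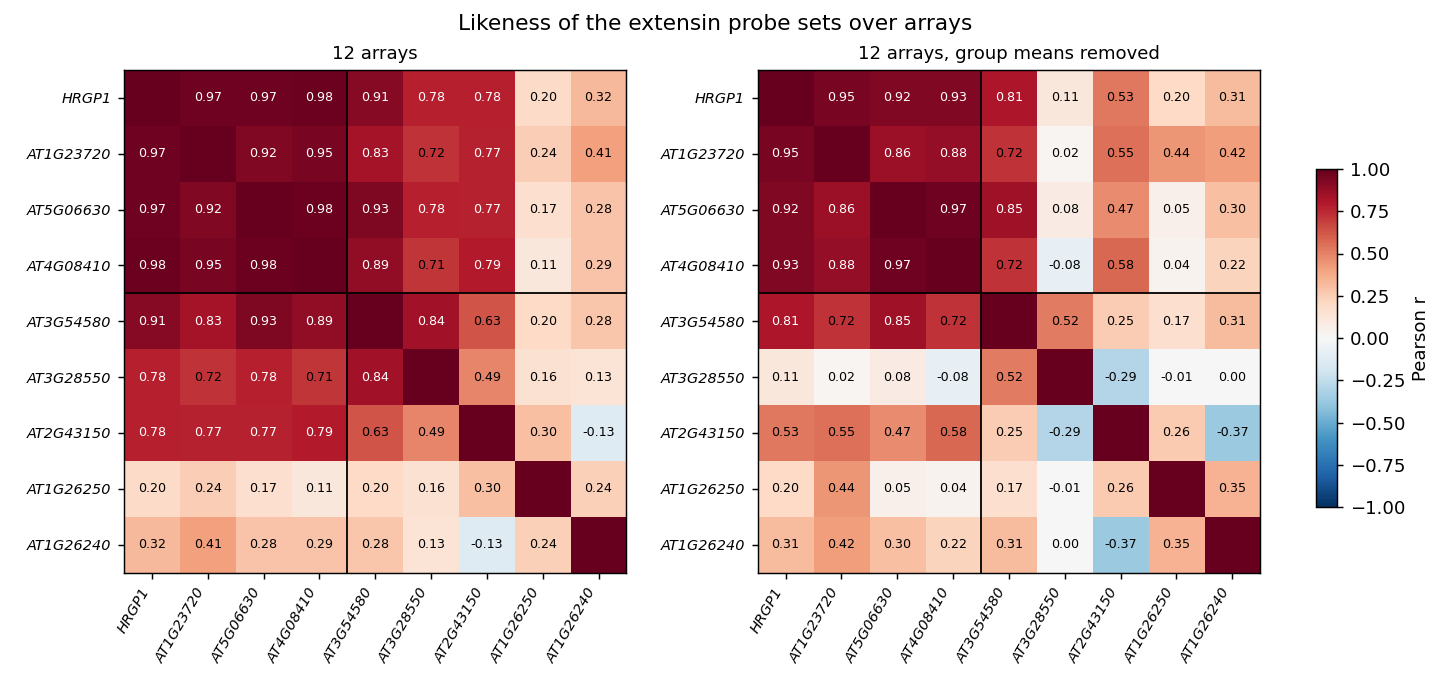
Pearson r of log2 signal between the 9 extensin probe sets over the 12 arrays (left) and after removal of the group means (right), on a colour scale from -1 to 1. Lines set off the 4 probe sets with suffix x at the upper left, where r stays at or above 0.857 in both panels.

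The level of the spiked-in controls, which reports hybridization and not the plant RNA, moved with the extensins on several arrays. Its mean log2 signal was 7.97, 7.96 and 8.45 in Col-0, 7.85, 7.74 and 10.54 in ara1OX, 7.39, 8.10 and 7.56 in Col-3, and 8.30, 9.29 and 8.30 in ara1/2mut. Col-3 replicate 1 was lowest and ara1OX replicate 3 highest in both the extensin average (-1.19 and 1.03) and the control level. In contrast, ara1OX replicate 2 had the second highest extensin average, 0.44, with the third lowest control level. With the control level as a covariate the median differences of the 9 became 0.37 in ara1OX against Col-0, 0.61 in ara1/2mut against Col-3 and -0.79 in Col-3 against Col-0. The ratio of 3' to 5' GAPDH signal, a sign of RNA quality, was 0.753, 0.984 and 0.780 in Col-3 and ran from 0.791 to 1.16 on the other arrays. Its part in the extensin values was not tested.

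**Figure D4:**
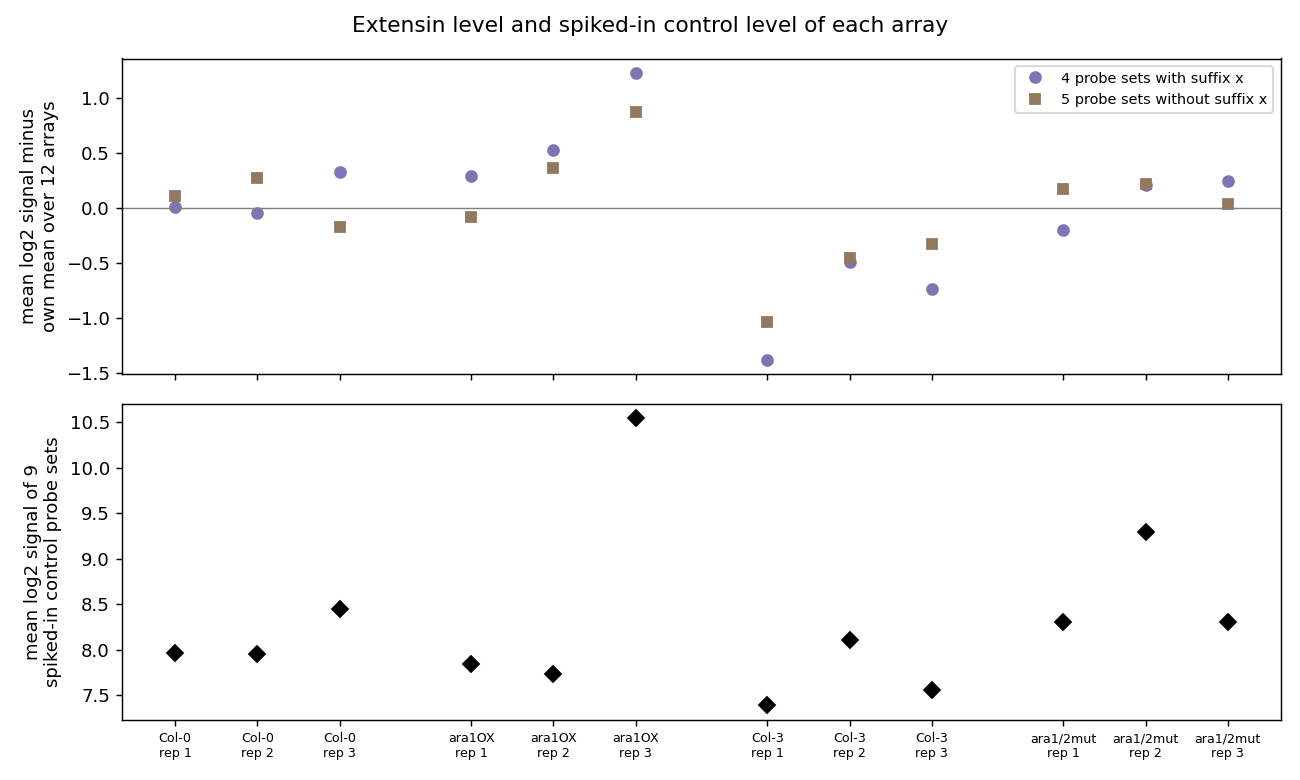
Upper panel: mean log2 signal of the extensin probe sets minus their own mean over 12 arrays, for the 4 with suffix x (circles) and the 5 without it (squares), by array. Lower panel: mean log2 signal of 9 spiked-in control probe sets on the same arrays, highest in ara1OX replicate 3 at 10.54.

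Other genes of root hair growth were followed through a list of 38, of which 9 had a probe set matched to 1 gene and 7 passed the filter. None of the 7 passed in limma in any of the 3 comparisons, and 1 in ara1OX, 0 in ara1/2mut and 1 in Col-3 had an unadjusted p under 0.05, which 6.43%, 3.56% and 5.08% of all probe sets reached. EXPA7, which encodes a root hair expansin that loosens walls, had signals of 204, 221 and 205 in Col-0 and 291, 266 and 255 in ara1OX, without overlap, and a log2 difference of 0.37 (SE 0.17, limma adjusted p 0.774). Its Col-3 signals of 232, 159 and 224 overlapped those of Col-0, with a log2 difference of -0.05 (SE 0.17). EXPA18, a second root hair expansin, had 227, 238 and 318 in Col-0, 344, 263 and 318 in ara1OX, 207, 187 and 207 in Col-3, and 247, 203 and 261 in ara1/2mut. Its Col-3 arrays lay below all Col-0 arrays, with a log2 difference of -0.37 (SE 0.17, limma adjusted p 0.956).

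GH9C1, an endoglucanase gene of root hairs, had log2 differences of 0.34 (SE 0.19) in ara1OX, 0.30 (SE 0.19) in ara1/2mut and -0.20 (SE 0.19) in Col-3 against Col-0. AT4G26010 had 0.26, 0.03 and -0.26, and AT1G30870 had 0.32, 0.13 and -0.30 in the same order. SCN1, which restricts root hair initiation to a single site, had -0.12, 0.26 and -0.27. FER, the receptor kinase gene FERONIA, had 0.001, 0.07 and 0.07. The median of the 7 was 0.26, 0.13 and -0.26, with the same signs as the extensin medians and smaller sizes. These signs were not particular to root hair genes. The 3 measured markers of inner root tissues, root cap and lateral roots had medians of 0.35, 0.20 and -0.20. The 2 measured shoot markers had -0.01, 0.23 and 0.03. Their summed signal ran from 3327 to 3817 in Col-0, 3726 to 4250 in ara1OX, 2870 to 3389 in Col-3 and 3061 to 3676 in ara1/2mut. In this sum and those given below, the probe sets with the highest signals weigh most.

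Genes for the hydroxylation and glycosylation of extensins made up a second list of 12, of which 4 were measured. None passed in limma in any of the 3 comparisons. An unadjusted limma p under 0.05 was reached by 1 in each, AT3G01720 in ara1OX and AT5G13500 in ara1/2mut and in Col-3. Of all probe sets 6.43%, 3.56% and 5.08% reached that level. AT3G01720 had log2 differences of 0.32 (SE 0.15) in ara1OX, 0.19 (SE 0.15) in ara1/2mut and -0.03 (SE 0.15) in Col-3. AT5G13500 had signals of 163, 187 and 164 in Col-0, 127, 139 and 169 in ara1OX, 145, 121 and 136 in Col-3, and 199, 177 and 180 in ara1/2mut. Its log2 difference was 0.47 (SE 0.16, limma adjusted p 0.999) in ara1/2mut, -0.36 (SE 0.16, limma adjusted p 0.956) in Col-3 and -0.25 (SE 0.16, limma adjusted p 0.833) in ara1OX. Its Col-3 arrays lay below all Col-0 and ara1/2mut arrays, and its ara1OX arrays overlapped those of Col-0. XEG113, which encodes an arabinosyltransferase that acts on extensins, had -0.21, -0.10 and -0.10, and AT3G57630 had 0.03, 0.23 and -0.12 in ara1OX, ara1/2mut and Col-3.

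The 28 other genes that the gene table names as extensin or extensin-like, EXT3, EXT10 and LRX1 among them, are not analysed here, and neither are the ARABIDILLO genes, because none had a probe set matched to it alone. The few measured markers of other cell types overlapped between all 4 groups. Of 7 shoot markers 2 were measured, and the summed signal of RCA and LHCB4.1 ran from 152 to 221 in Col-0, 170 to 230 in ara1OX, 161 to 239 in Col-3 and 186 to 339 in ara1/2mut. Of 11 markers of inner root tissues, root cap and lateral roots 3 were measured, and the sum of LBD16, LBD29 and PUCHI ran from 105 to 144, 107 to 184, 108 to 129 and 94.6 to 145. None of these markers was at 0 on any array. Of 10 genes of epidermal cell fate 1 had a probe set matched to it alone and 0 passed the filter. The share of hair and non-hair cells could therefore not be followed.

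The genes most like the extensins were taken from 7347 other probe sets with 1 gene, by the Pearson r over the 12 arrays with the extensin average. The 8 highest were AT1G65010 (r 0.897), AT1G77770 (0.891), MSRB6 (0.891), AT2G22510 (0.875), AT4G18950 (0.869), AT3G25930 (0.865), AT2G48030 (0.844) and AT3G23090 (0.844), with Spearman rho from 0.503 to 0.839. MSRB6 encodes a methionine sulfoxide reductase. None of the 8 probe sets carries the suffix x, but only 19 of the 13648 that passed the filter do, so this says little about shared probes. As examples, AT1G77770 had signals of 110, 103 and 120 in Col-0, 122, 142 and 140 in ara1OX, 83.3, 101 and 86.1 in Col-3, and 106, 114 and 110 in ara1/2mut. AT3G23090 had 208, 217 and 192 in Col-0, 227, 266 and 220 in ara1OX, 134, 163 and 163 in Col-3, and 189, 191 and 217 in ara1/2mut. Without ara1OX replicate 3 and Col-3 replicate 1, the 2 arrays farthest from the middle, r was 0.832 for AT1G77770, 0.881 for AT3G23090 and 0.554 for AT2G22510. The 8 were chosen as the highest of 7347, so their r is a description of these arrays.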

How the data were processed

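The deposited values are linear microarray intensities, 1 array per sample, and the submitters' processing notes name MAS5. Each deposited array had a mean signal of 100 once 2% of values were trimmed at each end. The MAS5 version is not given in the sources used here, and detection calls were not used. Of 22810 probe sets, 64 controls were left out, and the 13648 whose mean over arrays reached the 40th percentile (4.49 in log2) were tested. All 12 arrays entered 1 fit in limma 3.58.1 (R 4.3.3) on log2 signal without further normalization, with a coefficient per group. The residual degrees of freedom were 8 and the prior ones 7.49. All tests were two-sided, with Benjamini-Hochberg adjustment over all 13648 probe sets. The number of arrays limits the precision.

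Of the probe sets, 13513 were matched to 1 gene and 503 to several through the platform's gene table, and named with the gene table of TAIR10.1, also used for gene order. The 9 genes and the lists were chosen with earlier results of these data known. The rule for named genes took all 9, measured genes of the lists (at most 12 each), the 8 most like them, and up to 4 other extensins, of which 0 could be named. AT4G08400 was named outside it. Planned protein and promoter features are not analysed here. The fit was tested on simulated data in which each probe set varied independently. Of 100 planted log2 differences of 1, it called 54% in ara1OX, 52% in ara1/2mut and 46% in Col-3. Of 100 planted differences of 2 it called 94%, 95% and 87%. A probe set that did not pass may therefore still differ.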

Additional observations from a re-analysis of the deposited data

Results flagged for a closer look

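AT5G13500 stood out because all 3 ara1OX arrays lay below the Col-0 mean (log2 difference -0.25) and all 3 ara1/2mut arrays lay above the Col-3 mean (0.47). The difference between these changes was -0.72 on the log2 scale (SE 0.22, limma p 0.00547), and it did not pass after adjustment over all probe sets (adjusted p 0.865). Groups of 3 arrays are too small to look for a single outlying sample.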

How the results depend on the processing

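The fit was repeated with array weights, with spike-in level as covariate, with replicate number as a block, with the compared groups alone, without the variance trend, after median centring or quantile normalization, with 16 added to each signal, with all probe sets or those above the 60th percentile (7 of the 9), and without each array. In none of them did a member pass in ara1OX against Col-0 in limma, and the medians of the 9 kept their signs. The medians ran from 0.30 to 0.71 in ara1OX, 0.70 to 1.13 in ara1/2mut and -0.99 to -0.64 in Col-3 with 1 array left out. The median in ara1/2mut became 0.61 with the spike-in covariate, and that in Col-3 became -0.57 over the 5 probe sets without suffix x. The cause was not tested. Over all probe sets 3 passed in ara1OX, against 15 with array weights, 5 with only the groups compared, 17 with the replicate block and 3 to 14 with 1 array left out (14 without ara1OX replicate 2, 7 without ara1/2mut replicate 1, 5 without ara1OX replicate 3). In ara1/2mut the count of 0 became 4 with array weights and 1 without Col-3 replicate 2 or 3, and in Col-3 against Col-0 it became 2 without Col-3 replicate 2. At an unadjusted limma p under 0.05 these 2 comparisons had 486 and 694. In counts added after the data were seen, overlap was followed with 1 array left out. Members wholly above Col-0 in ara1OX numbered 2 to 6 (8.73 to 10.4% of all probe sets). Those wholly above Col-3 in ara1/2mut numbered 6 to 7 (8.39 to 11.9%). Those wholly below Col-0 in Col-3 numbered 4 to 6 (10.8 to 15.3%). The 6 in ara1OX came without Col-0 replicate 3 (8.93% of all probe sets) or ara1OX replicate 1 (10.4%). Without Col-0 replicate 3, 1 further member lay wholly below Col-0 in ara1OX, as did 11.2% of all probe sets.

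The replicate numbers did not meet the bound for pairs: deviations of same-numbered arrays correlated at 0.137, 0.0333 and 0.118 between Col-0 and ara1OX, 0.175, 0.0956 and 0.256 between Col-3 and ara1/2mut, and -0.00356, -0.0824 and 0.0190 between Col-0 and Col-3. In the first and second of these pairs of groups each array correlated best with its own number, a hint from the data and not from the design. With the block 6 of the 9 had an unadjusted p under 0.05 in ara1OX, as did 7.96% of all probe sets, and the smallest adjusted p was 0.214.

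Signs that turned were of values that passed in no setting, or of members not tested in that comparison. AT1G26240 in ara1OX became -0.11 with the spike-in covariate. FER in ara1OX became -0.00643 with quantile normalization, -0.0134 with median centring, -0.0710 with array weights and -0.0435 with the spike-in covariate. With that covariate AT4G26010 and FER in ara1/2mut became -0.0213 and -0.00497, and AT3G01720 in Col-3 became 0.00226. With array weights EXPA7 and AT3G01720 in Col-3 became 0.0165 and 0.00928. With 1 array left out the ranges in ara1OX were -0.49 to 0.86 for AT1G26240, -0.72 to 0.030 for AT1G26250, -0.087 to 0.62 for AT2G43150, -0.090 to 0.055 for FER and -0.16 to 0.16 for AT3G57630. In ara1/2mut they were -0.041 to 0.23 for EXPA7, -0.10 to 0.18 for AT4G26010, -0.027 to 0.16 for FER and -0.40 to 0.21 for AT1G26240, and in Col-3 -0.15 to 0.12 for EXPA7, -0.10 to 0.047 for AT3G01720, -0.71 to 0.11 for AT1G26240 and -0.81 to 0.026 for AT1G26250.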
